A study of Arabidopsis thaliana with 18 samples.

Results

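Transcript levels in Arabidopsis thaliana were compared among the samples that had received salicylic acid (SA), between the 3 arrays that come first in the serial order of the titles and the 6 that follow. The members are the 9 SA arrays of 18 in the series, chosen by their titles and by no measured value. Arrays 28, 29 and 30 form the first block, and arrays 31 to 36 are the later arrays, with 31 to 33 as the second block and 34 to 36 as the third. Each block holds replicate numbers 1, 2 and 3 once. All plants were of the Cape Verde accession Cvi-1. SA was given at 0.3 mM in 0.02% silwet, an organosilicone surfactant that spreads solutions over leaves, and the other 9 arrays had silwet at 0.02% alone, also in 3 blocks (19 to 21, 22 to 24 and 25 to 27). The sources used here do not say what the serial blocks stand for, nor the tissue, the age of the plants or the time of harvest, and no time was inferred. Whether replicates were separate plants is not stated, and the p-values therefore cover only the variation among these arrays, part of which may be technical.

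SA is a hormone of plant immunity. Its rise after infection is read by the NPR proteins, which act with TGA transcription factors on defence genes, and SA is cleared from the active pool by glucosylation, methylation and hydroxylation. SA-treated leaves are known for defence transcripts, for a larger secretory and protein-folding capacity in the endoplasmic reticulum, and for lower transcripts of growth and photosynthesis.

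The levels are MAS5 signals, the linear intensity of a probe set after the authors' scaling to the same trimmed mean on each array, and differences are on the log2 scale, first block minus later arrays. Median signal ranged from 31.7 to 38.7 over the 18 arrays, and precision is limited by how few arrays there were. The 6 measures of array quality did not pass a 2-sided exact permutation test over the 84 assignments of 3 among 9 arrays (adjusted p of at least 0.5). With so few assignments, 1 measure alone could not have passed after adjustment over 6, even with no overlap between the groups. The test therefore cannot show that quality was alike. The nearest was the actin 3' to 5' signal ratio, at 1.11 ± 0.199 in the first block and 0.874 ± 0.142 in the later arrays (SD, n = 3 and 6, exact p = 0.0952). It was 1.12, 0.898 and 1.29 in arrays 28, 29 and 30, against 0.688 to 1.07 in the later arrays. Arrays 28 and 30 thus lay above all later arrays in this ratio, and array 29 lay among them. Array quality was not tested without array 29, and whether this ratio bears on the differences in signal was not tested. Of 13 tested nuclear photosynthesis genes, which mark green tissue, 0 were called with all arrays. Without array 29, 4 fell, PRK among them, while 16.9% of all probe sets fell. PRK, a Calvin cycle enzyme, had signals of 1391, 2085 and 1167 in arrays 28, 29 and 30, against 1667 to 2381 in the later ones. Markers of other cell types were few, with 1 root marker and 3 trichome, guard cell and vascular markers tested and 0 of them called in either fit.

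Array 29 stood apart from arrays 28 and 30. For GRX480, a glutaredoxin that binds TGA factors and is induced by SA, signals were 613, 167 and 701 in arrays 28, 29 and 30, against a lowest, median and highest of 68.1, 115 and 163 in the later arrays. UGT76B1, which glucosylates SA, had 1238, 41.2 and 1552 in arrays 28, 29 and 30, against 10.3, 17.9 and 54.0 in the later arrays. Array 29 lay within the later range for UGT76B1 and just above its top for GRX480, while arrays 28 and 30 lay far above. In bulk samples a change in the number of cells of a type and a change in RNA per cell cannot be told apart. The silwet array of the same block and replicate number did the opposite: UGT76B1 was at 1539.9 in array 20, against 39.3 and 77.6 in silwet arrays 19 and 21, and GRX480 was at 733, against 102 and 192. Arrays 20 and 29 thus go against their labels for these genes, and the labels were kept. Each result is given with all SA arrays and without array 29. That omission was asked for with the marker levels of these arrays known, so its p-values carry that choice.

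The same held across probe sets. Among the 1780 called higher in the first block without array 29 (13.0% of those tested), the median difference against the later arrays of the same replicate number was 1.24 in arrays 28 and 30, 0.128 in array 29, 1.13 in silwet array 20 and 0.158 in silwet arrays 19 and 21. Among the 2302 called lower (16.9%), the medians were -0.974, -0.0239, -0.833 and -0.0509. Over all 13648 tested probe sets the medians were -0.117, -0.00253, -0.144 and -0.0136. Probe sets were picked by arrays 28 and 30 here, so those medians are a description. Arrays 20, 19 and 21 entered the choice only through the filter on intensity. Array 29 entered it through that filter and through its omission, which was made with its marker levels known. Its medians are therefore no independent check.

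**Figure D1:**
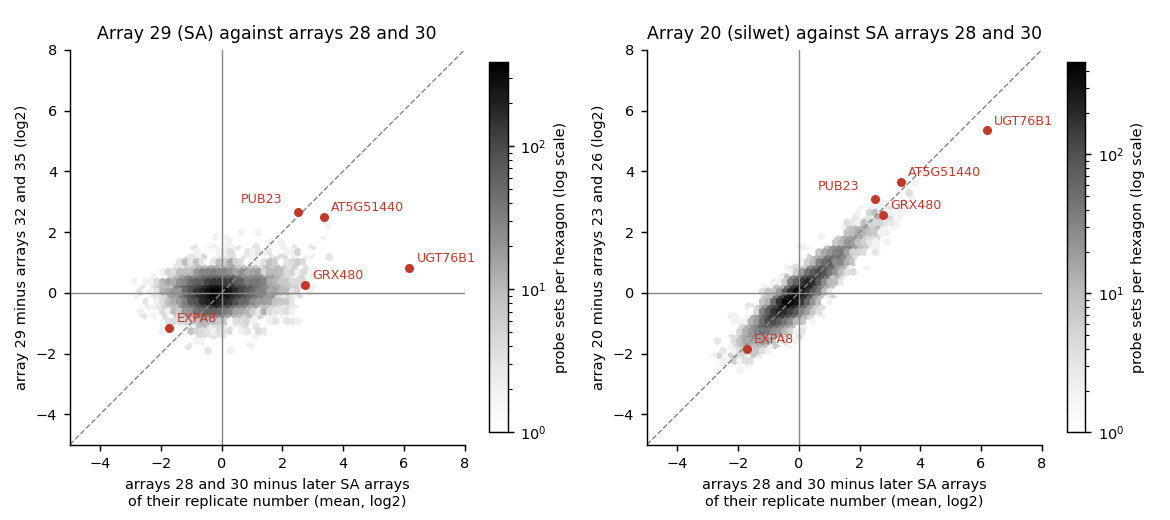
Difference from the later arrays of the same treatment and replicate number, for each of 13648 probe sets, in SA array 29 (left) and silwet array 20 (right) against the mean difference in SA arrays 28 and 30, on log2 axes with shading by the number of probe sets. Array 29 lies nearer to the horizontal line than to the dashed line of equality, with PUB23 and AT5G51440 among the exceptions. All 3 first-block arrays, array 29 included, lay above all later SA arrays in 720 probe sets and below them in 927. Array 20 lies along the dashed line.

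With all 9 SA arrays, 925 of 13648 probe sets differed between the first block and the later arrays at a limma adjusted p under 0.05 (6.78% of those tested). Of these 555 were higher (4.07%) and 370 lower (2.71%) in the first block, 637 by at least 2-fold. The 3 arrays of the first block lay above all 6 later arrays in 720 probe sets (5.28%) and below them in 927 (6.79%), and the groups did not overlap in 738 of the 925 calls. Without array 29 the count was 4082 (29.9%), with 1780 higher (13.0%) and 2302 lower (16.9%), and 2292 of them by at least 2-fold. In that fit arrays 32 and 35 had no first-block array of their replicate number. They entered only the estimate of spread, so the differences set arrays 28 and 30 against arrays 31, 33, 34 and 36. The ranges of later signals are over all 6 later arrays. With each array centred on its median these became 1878 higher and 1822 lower, so which direction had more calls turned with the scaling. Of the 925 calls, 916 were also called without array 29, all with the same sign, which is 99% of the first set and 22.4% of the second. Few calls were left without array 28 (21) or without array 30 (6). Leaving out later arrays also moved the count, to 414 without array 31, 1329 without 32, 183 without 33, 309 without 34, 385 without 35 and 173 without 36. Without array 29, leaving out array 28 as well left 2056 calls and leaving out array 30 left 1123.

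The few tested genes of SA handling and signalling were higher in the first block. Of 67 names in the list of SA response markers, 5 had a probe set of 1 gene and 4 were tested. Of these 4 markers, 3 rose with all arrays and 4 without array 29, against 4.07% and 13.0% of all probe sets. Their median log2 difference was 2.03 and 2.68, against -0.0857 and -0.117 over all probe sets. Array 29 was left out with its UGT76B1 and GRX480 levels known, so the results without it are no independent test for those genes. The log2 difference of UGT76B1 was 4.40 ± 0.93 (SE) with all arrays (adjusted p = 0.0294) and 6.18 ± 0.57 without array 29 (adjusted p = 0.000293). GRX480 differed by 1.93 ± 0.43 (SE) with all arrays (adjusted p = 0.0356) and 2.76 ± 0.26 without array 29 (adjusted p = 0.000302). WRKY53, a factor that promotes leaf senescence, had 715, 146 and 511 in arrays 28, 29 and 30, against 55.6, 89.2 and 122 as the lowest, median and highest later signal. All 3 first-block arrays were above the later ones, array 29 by the least, and the difference was 2.13 ± 0.29 (SE) with all arrays (adjusted p = 0.00928) and 2.60 ± 0.24 without array 29 (adjusted p = 0.000285). SAG101, a partner of EDS1 in immune receptor signalling, was at 45.7, 30.3 and 55.7 in arrays 28, 29 and 30 against 20.3, 31.0 and 34.7. Array 29 lay inside the later range, and SAG101 passed only without it (0.83 ± 0.27, adjusted p = 0.0458).

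**Figure D2:**
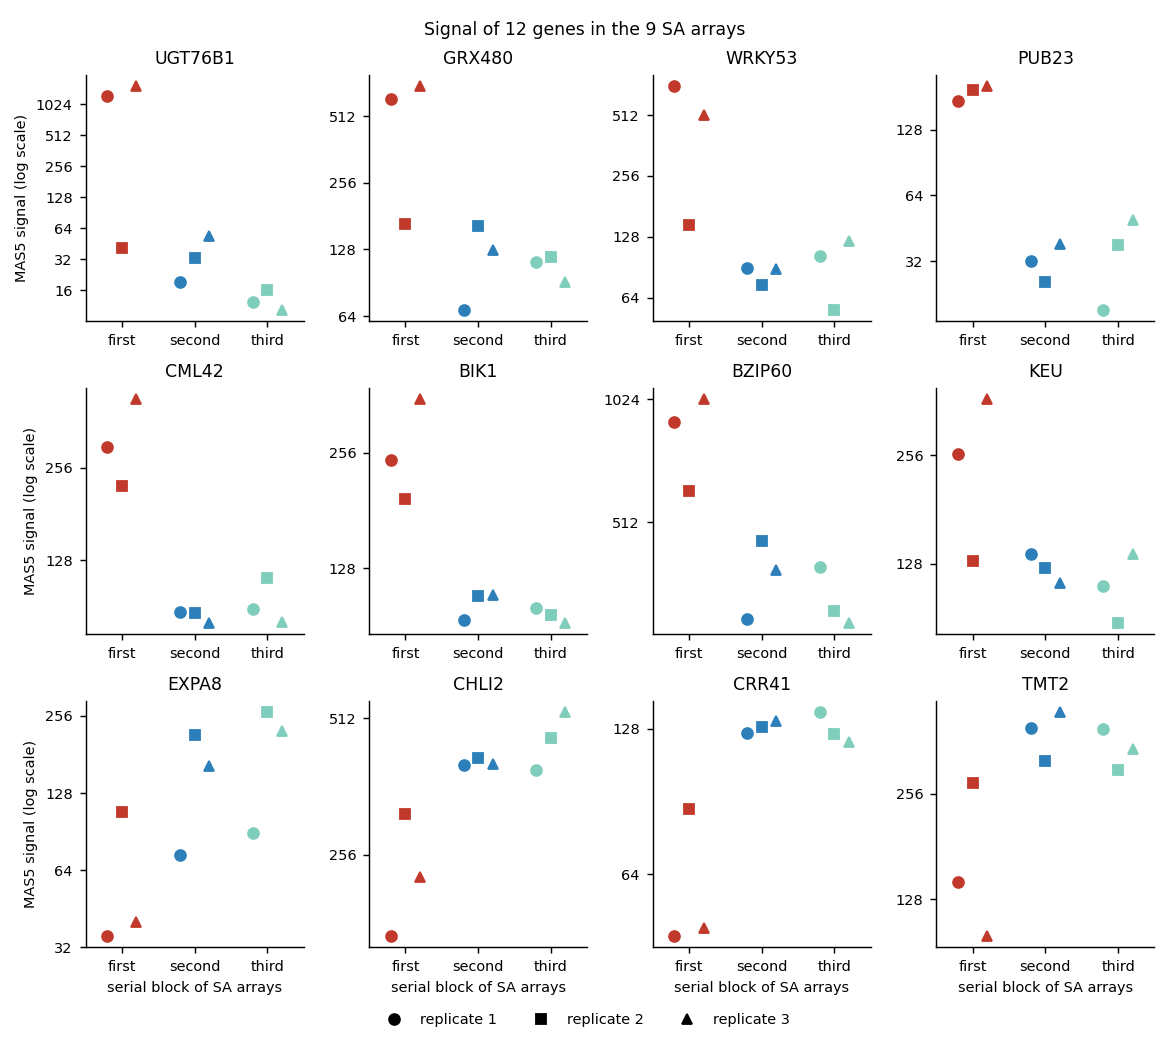
MAS5 signal on a log2 axis of 12 genes, chosen after their values were seen, in the 9 SA arrays, by serial block and replicate number (circle 1, square 2, triangle 3). Arrays 28 and 30 are the circle and triangle of the first block. For PUB23, CML42, BIK1 and BZIP60 the square of the first block, array 29, also lies above all later arrays, and for UGT76B1 it lies among them.

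Most of the few tested genes of pattern-triggered immunity were higher in the first block, and several were higher in array 29 too. Of 73 names in the list, 5 had a probe set of 1 gene and 4 were tested. Of these 4 members, 3 rose with all arrays and 4 without array 29, against 4.07% and 13.0% of all probe sets. The median of the list was 1.40 and 1.75. PUB23, a U-box ubiquitin ligase that dampens immune signalling, had 174, 195 and 204 in arrays 28, 29 and 30, against 19.1, 35.1 and 49.5 in the later arrays. The 3 first-block arrays were close together and above every later array, and the difference was 2.56 ± 0.24 (SE) with all arrays (adjusted p = 0.00297) and 2.52 ± 0.29 without array 29 (adjusted p = 0.000622). Its relative PUB24 had 214, 109.5 and 325 against 57.8, 71.8 and 98.4, with array 29 nearest to the later arrays, and differed by 1.45 ± 0.28 (SE) with all arrays (adjusted p = 0.0237) and 1.92 ± 0.21 without array 29 (adjusted p = 0.000512). BIK1, a cytoplasmic kinase directly below pattern receptors, had 245, 194 and 355 against 91.96, 98.7 and 109. All of its first-block signals were higher than the later ones, and the difference was 1.36 ± 0.20 (SE) with all arrays (adjusted p = 0.0105) and 1.58 ± 0.20 without array 29 (adjusted p = 0.00086). EFR, the receptor for the bacterial elongation factor Tu peptide, had 54.9, 25.2 and 56.1 against 30.0, 38.9 and 47.6. It passed only without array 29 (0.66 ± 0.21, adjusted p = 0.0454) and differed by 0.16 ± 0.29 with it (adjusted p = 0.739).

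Further immune kinases and receptors were found among the calls after the values had been seen. SD1-29, a lectin S-domain kinase that senses bacterial fatty acid metabolites, had 169, 91.5 and 150.2 in arrays 28, 29 and 30 against 38.7 to 60.2 in the later arrays, and rose by 1.35 ± 0.21 (adjusted p = 0.0126). B120, another S-locus lectin kinase, had 60.3, 56.9 and 189 against 6.93 to 30.7 and rose by 2.52 ± 0.38 (adjusted p = 0.0105). SGT1A, a cochaperone of immune receptors, had 142, 46.5 and 144 against 26.9 to 44.8, with array 29 barely above the later arrays, and rose by 1.48 ± 0.36 (adjusted p = 0.0414). WRKY6 and WRKY22, both factors of senescence and defence, differed by 1.30 and 0.71. WRKY6 was called with all arrays (adjusted p = 0.0264) and WRKY22 only without array 29 (adjusted p = 0.0095). Of 5 WRKY genes tested, 2 rose with all arrays and 3 without array 29, against 4.07% and 13.0% of all probe sets.

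Of 3 tested genes of the calcium and touch list, 1 rose with all arrays and 2 without array 29, against 4.07% and 13.0% of all probe sets, and 2 of 3 calmodulin-like proteins rose in each fit. CML42, a calmodulin-like protein of trichomes and the herbivore response, had 299, 222 and 428 in arrays 28, 29 and 30, against 80.0, 86.5 and 112 as the lowest, median and highest later signal. The groups were well apart, and the difference was 1.79 ± 0.23 (SE) with all arrays (adjusted p = 0.00853) and 2.09 ± 0.22 without array 29 (adjusted p = 0.000429). CML30 had 29.6, 41.5 and 56.6 against 10.4 to 26.0 and rose by 1.20 ± 0.30 (adjusted p = 0.0476). Of 7 tested glutamate receptor-like channels, 0 were called with all arrays and 3 rose without array 29, namely ATGLR1.2, GLR2.7 and GLR2.8 at 1.44, 0.88 and 0.93. In array 29 the signals of GLR2.7 and GLR2.8 were 102, near the bottom of the later range of 95.8 to 160.4, and 21.4, below the later range of 25.1 to 57.2.

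Of 8 tested genes of protein folding in the endoplasmic reticulum, 2 rose with all arrays and 5 without array 29, at a median of 0.635 and 0.837. The shares that rose over all probe sets were 4.07% and 13.0%. BZIP60, the transcription factor activated by splicing when unfolded proteins accumulate, had 901, 610.3 and 1028 in arrays 28, 29 and 30, against 289.7, 350.3 and 461 in the later arrays. Its first-block arrays were all higher, array 29 by the least, and the difference was 1.23 ± 0.22 (SE) with all arrays (adjusted p = 0.0202) and 1.50 ± 0.23 without array 29 (adjusted p = 0.00169). ATERDJ3B, a cochaperone that EFR needs for its folding, had 924, 690.2 and 1042 against 389.8, 463 and 581, also without overlap, and differed by 0.93 ± 0.19 (SE) with all arrays (adjusted p = 0.0269) and 1.21 ± 0.17 without array 29 (adjusted p = 0.00132). BZIP28, the membrane-bound sensor of the same response, DER1 of protein export for degradation and the chaperone calreticulin CRT1b rose without array 29 by 1.18, 0.87 and 0.80. With all arrays their adjusted p was 0.0815, 0.0844 and 0.0888. Of the cytosolic chaperones, Hsp70-2 had 760.3, 194 and 718 against 81.3 to 177 and rose by 1.81 ± 0.39 (adjusted p = 0.0318). Fes1A, a cofactor of cytosolic Hsp70, had 211, 102 and 239 against 65.9 to 95.1 and rose by 1.10 ± 0.26 (adjusted p = 0.0391).

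Vesicle traffic and autophagy genes were called mostly without array 29. Of 28 tested genes named as exocyst, SNARE-related, ESCRT or Rab acceptor proteins, a family set up after the values were seen, 2 rose with all arrays, near the 4.07% of all probe sets. Without array 29, 12 rose and 1 fell, against 13.0% and 16.9%, at a median of 0.449. KEU, a Sec1 protein of membrane fusion in dividing cells, had 258, 130.4 and 367.02 in arrays 28, 29 and 30, against 87.6, 119 and 137 in the later arrays. Array 29 lay inside the later range, and the difference was 0.98 ± 0.25 (SE) with all arrays (adjusted p = 0.0448) and 1.32 ± 0.23 without array 29 (adjusted p = 0.00331). VPS60.1, an ESCRT protein of endosome sorting, had 144, 86.7 and 279 against 48.0 to 69.2 and rose by 1.44 ± 0.27 (adjusted p = 0.0222). The exocyst subunits SEC10 and SEC15B, the Sec1 protein SEC1B, the ESCRT protein VPS20.1 and the Rab acceptor PRA1.G2 rose without array 29 by 1.38, 0.91, 1.08, 0.91 and 1.42, while VPS9B fell by 1.11. Of 9 tested ATG8 proteins, which coat autophagosome membranes, 0 were called with all arrays. Without array 29, 4 rose: ATG8H, ATG8E, ATG8B and APG8A, by 1.53, 1.20, 1.07 and 0.82.

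Of 24 tested UDP-glycosyltransferases, which attach sugars to small molecules, 4 rose and 0 fell with all arrays, and 9 rose and 5 fell without array 29. Over all probe sets the shares were 4.07% higher and 2.71% lower with all arrays, and 13.0% and 16.9% without array 29, so that the share that fell was near that of all probe sets. With all arrays the 4 were UGT76B1, UGT73C1, UGT74B1 and UGT87A2. UGT73C1, which can glucosylate cytokinins, had 56.0, 34.3 and 43.8 in arrays 28, 29 and 30, against 11.3, 14.2 and 24.4 in the later arrays. None overlapped, and the difference was 1.53 ± 0.26 (SE) with all arrays (adjusted p = 0.0157) and 1.64 ± 0.32 without array 29 (adjusted p = 0.00522). UGT74B1, an enzyme of glucosinolate synthesis, had 477, 505 and 454.1 against 230.3 to 357 and rose by 0.67 ± 0.16 (adjusted p = 0.0398). UGT87A2 had 682, 394 and 554 against 194 to 309 and rose by 1.02 ± 0.19 (adjusted p = 0.021). Without array 29, UGT73D1, UGT72E1, UGT74D1, UGT84A3 and UGT71C5 also rose, by 2.20, 1.13, 0.97, 0.95 and 0.74. The flavonol glycosyltransferases UGT78D1 and UGT78D2 fell, at -1.08 and -1.02, and so did UGT71B1, UGT76C1 and UGT85A5, at -1.02, -0.93 and -0.89. For UGT78D1, array 29 had 144, above the later range of 62.4 to 126, while arrays 28 and 30 had 59.5 and 37.6.

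Of 5 tested auxin response genes, 0 were called with all arrays and 2 rose without array 29. GH3.3, which joins auxin to amino acids, had 95.6, 39.9 and 206 in arrays 28, 29 and 30, against 4.26, 44.8 and 64.7 in the later arrays. WES1, a GH3 enzyme that conjugates auxin and SA, had 70.2, 61.4 and 108 against 9.85, 38.4 and 59.4. Array 29 was inside the later range for GH3.3 and just above it for WES1. They rose by 2.47 ± 0.75 and 1.68 ± 0.41 without array 29 (adjusted p = 0.0352 and 0.0148) and missed the threshold with it (adjusted p = 0.159 and 0.0655). Outside that list IAGLU, an auxin glucosyltransferase, rose by 1.57 ± 0.29 without array 29 (adjusted p = 0.00452). Of 9 tested glutathione transferases, 0 were called with all arrays, and without array 29 GSTU25 rose by 1.34 while 3 fell, GSTU26 and GSTU18 among them at -1.69 and -1.28. Of 8 cytochromes P450, 0 were called with all arrays, and without array 29 CYP71B23 rose by 1.17 while CYP71B36, CYP71B26 and CYP71B34 fell, at -2.11, -1.28 and -1.05. In the list of early detoxification genes of the SA response, 1 of 7 rose with all arrays. Without array 29 there were 3 higher and 2 lower, with AOR, a reductase of reactive carbonyls, at -1.14. Beside all the lists of this paragraph, 4.07% of all probe sets rose with all arrays, and 13.0% rose and 16.9% fell without array 29.

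Of 5 tested phenylpropanoid and flavonoid genes, 1 rose with all arrays, and 2 rose and 2 fell without array 29, at a median of -0.349 and 0.0307; those that fell were UGT78D1 and UGT78D2. CCOAMT, a caffeoyl-CoA methyltransferase of lignin precursor synthesis, had 137, 45.9 and 254 in arrays 28, 29 and 30, against 20.7, 34.8 and 38.0 in the later arrays. Array 29 was just above the later arrays, and the difference was 1.88 ± 0.41 (SE) with all arrays (adjusted p = 0.0329) and 2.64 ± 0.27 without array 29 (adjusted p = 0.00041). HCT, an acyltransferase of the same pathway, rose by 0.99 ± 0.18 without array 29 (adjusted p = 0.00402). Of 7 tested redox and oxidative stress genes, 1 rose with all arrays and 3 without array 29, and none of them fell. STZ, a zinc finger repressor induced by oxidative and other stresses, had 449.8, 139.5 and 916 against 112, 126 and 201. Array 29 was inside the later range, and STZ differed by 1.52 ± 0.38 (SE) with all arrays (adjusted p = 0.0435) and 2.20 ± 0.25 without array 29 (adjusted p = 0.000581). NDB2, an alternative NADH dehydrogenase of mitochondria, rose by 1.40 ± 0.25 without array 29 (adjusted p = 0.00357), and AT5G64120 by 3.56 ± 0.48 (adjusted p = 0.00112). Of 4 tested methionine sulfoxide reductases, 1 rose and 1 fell with all arrays, and 1 rose and 2 fell without array 29. MSRB9 of this family had 177, 176 and 223 against 46.2 to 99.5 and rose by 1.58 ± 0.26 (adjusted p = 0.0127). MSRB6 had 24.7, 162 and 80.5 against 93.1 to 233 and fell by 1.24 (adjusted p = 0.0379). For comparison, 4.07% of all probe sets rose and 2.71% fell with all arrays, and 13.0% rose and 16.9% fell without array 29.

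The genes that the naming rule took as the largest rises with all arrays were UGT76B1 and 9 loci for which the tables used here give no symbol. AT5G51440 had 238, 213 and 273 in arrays 28, 29 and 30, against 19.7, 26.0 and 65.1 in the later arrays, and rose by 3.07 ± 0.34 (adjusted p = 0.00407). AT2G38240 had 263, 274 and 326 against 12.3 to 82.6 and rose by 3.08 ± 0.43. AT2G34930 had 81.6, 617 and 274 against 6.98 to 64.6 and rose by 2.91 ± 0.40. In these 3, array 29 lay above all later arrays beside arrays 28 and 30, and for AT2G34930 it was the highest. The others were AT1G49000, AT2G20720, AT1G10585, AT3G02840, AT3G16530 and AT1G02360, with log2 differences from 2.90 to 3.49. AT1G02360 was divided within the first block, at 139.8, 18.9 and 153 against 6.42 to 14.1. In array 29 and all later arrays it was below 19.9, the filter's threshold for the mean signal. The size of its rise therefore depends on low signals. With 16 added to each signal it was at 1.896 with all arrays, against 2.895 as deposited, and was still called (adjusted p = 0.018).

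Without array 29 the rule took UGT76B1, AT2G20720, AT5G03350, AT1G49000, AT1G02360, AT4G22530, AT3G28510, AT5G38710, AT3G01830 and AT1G08050. AT5G03350 had 1308, 122 and 1418 in arrays 28, 29 and 30, against 43.8, 105 and 260.5 in the later arrays. AT3G28510 had 499, 9.61 and 483 against 7.46, 33.9 and 58.4. Array 29 was inside the later range for both, which rose by 4.15 ± 0.55 and 3.70 ± 0.53 without it (adjusted p = 0.00105 and 0.00144) and were not called with it (adjusted p = 0.0883 and 0.106). AT4G22530, AT5G38710, AT3G01830 and AT1G08050 rose in both fits, by 3.76, 3.65, 3.62 and 3.62 without array 29.

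Other named genes that rose with all arrays, listed after their values were seen, had a range of roles. YLS5, a senescence-linked transcript, had 1527, 479 and 1049 in arrays 28, 29 and 30 against 299 to 458 in the later arrays and rose by 1.40 ± 0.32 (adjusted p = 0.0356). GID1B, a gibberellin receptor, had 121, 59.5 and 215 against 35.7 to 64.6 and rose by 1.32 ± 0.33 (adjusted p = 0.0453). GFAT, the first enzyme of hexosamine synthesis, had 124, 81.9 and 129 against 31.3 to 61.7 and rose by 1.38 ± 0.28 (adjusted p = 0.0249). TBL37 and TBL32, of a family of cell wall polysaccharide acetyltransferases, rose by 1.83 and 0.83. TBL37 was at 122, 212 and 232 in arrays 28, 29 and 30 against 33.5 to 90.4. Of 13 tested members of the family, 2 rose with all arrays, against 4.07% of all probe sets. Without array 29, 2 rose and 2 fell, near the 13.0% and 16.9% of all probe sets. ATPMEPCRB, a pectin methylesterase, and SBT3.5, a subtilase that processes such enzymes, rose by 1.89 and 2.32. CHX20, a cation exchanger known from guard cells, TAAC, a chloroplast ATP carrier, and the dynamin-like DL1B rose by 1.02, 0.74 and 1.49. AR781, ATSIK, IQD22, MAMI, RD2 and SGP2 rose by 0.80 to 1.87.

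Of 10 tested cell wall and growth genes, 3 fell with all arrays and 4 without array 29, and none rose. The shares that fell over all probe sets were 2.71% and 16.9%. Of 8 tested expansins, the proteins that loosen cell walls, 4 fell with all arrays and 4 without array 29, at a median of -1.17 and -1.10. EXPA8 had 35.4, 108 and 40.2 in arrays 28, 29 and 30, against 73.6, 189.8 and 266 as the lowest, median and highest later signal. Array 29 overlapped the later arrays and arrays 28 and 30 did not, and the difference was -1.53 ± 0.24 (SE) with all arrays (adjusted p = 0.0126) and -1.72 ± 0.28 without array 29 (adjusted p = 0.00225). EXPB3 had 44.3, 66.1 and 28.8 against 63.3, 164 and 221, again with array 29 inside the later range, and differed by -1.74 ± 0.37 (SE) with all arrays (adjusted p = 0.0309) and -1.96 ± 0.44 without array 29 (adjusted p = 0.0105). EXPA15 had 43.7, 53.3 and 62.8 against 62.8 to 172 and fell by 1.08 (adjusted p = 0.0247), and EXLB1 had 25.9, 10.9 and 13.4 against 19.4 to 107 and fell by 1.26 (adjusted p = 0.0282). EXPB1 was at -1.25 ± 0.40 and was not called.

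Cellulose and xyloglucan enzymes and cytoskeleton genes gave fewer calls with array 29 in the fit. Of 5 tested GH9 cellulases, which trim cellulose during wall growth, 0 were called with all arrays and 5 fell without array 29, against 16.9% of all probe sets. GH9C2 had 89.8, 612 and 86.0 in arrays 28, 29 and 30, against 234, 404 and 736 in the later arrays. Array 29 was within the later range and near its top, and GH9C2 differed by -1.20 ± 0.44 (SE) with all arrays (adjusted p = 0.111) and -1.95 ± 0.34 without array 29 (adjusted p = 0.00338). GH9B5, GH9B8, GH9B13 and GH9B7 fell without array 29, at -1.12 to -0.71. Of 4 xyloglucan endotransglucosylases, XTH16 and XTH32 fell, at -1.39 and -1.62 and XTH29 rose by 1.73 without array 29. TUB1, a beta-tubulin, had 55.2, 94.6 and 55.5 against 109.8 to 184 and fell by 0.96 with all arrays (adjusted p = 0.0475). TUB5 and TUB6 fell, at -1.13 and -0.67 without array 29, and the alpha-tubulin TUA1 rose by 0.82. HTB1, a histone H2B, had 155, 196 and 108 against 265 to 370.97 and fell by 1.06 (adjusted p = 0.024), and the mitotic kinase AUR1 fell by 0.66 without array 29.

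Several regulators and peptide signals of development were picked out from the genes that fell, and form no list. SHN3, an AP2 factor of wax and cutin synthesis, had 15.5, 15.8 and 1.91 in arrays 28, 29 and 30 against 18.4 to 65.9 in the later arrays and fell by 1.96 (adjusted p = 0.042). TCP15, a factor of cell proliferation in leaves, had 83.6, 119.6 and 75.1 against 139.9 to 189.8 and fell by 0.88 (adjusted p = 0.0388). CLE44, a peptide of vascular development, had 30.4, 48.4 and 32.0 against 73.9 to 131 and fell by 1.32 (adjusted p = 0.0196). RALFL34, a RALF peptide, had 245, 435 and 209.9 against 534 to 885 and fell by 1.17 (adjusted p = 0.0247). Without array 29, GIS, a trichome factor, STOMAGEN, a peptide that raises stomatal density, and MYC4, a jasmonate factor, fell, at -2.73, -1.68 and -0.98. STOMAGEN was at 39.4, 108 and 43.6 in arrays 28, 29 and 30, against 92.8, 127 and 193 later, with array 29 inside that range. ATKDSA2 and CKS, both enzymes of the pectin sugar KDO, fell, at -1.15 and -0.89 with all arrays.

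Enzymes of chlorophyll synthesis and factors of photosystem assembly were among the nuclear genes that fell, and were picked out after their values were seen. CHLI2, a subunit of magnesium chelatase, had 169, 314 and 229 in arrays 28, 29 and 30, against 394, 411 and 529 in the later arrays. Every first-block array was below every later one, array 29 by the least, and the difference was -0.91 ± 0.18 (SE) with all arrays (adjusted p = 0.0249) and -1.13 ± 0.18 without array 29 (adjusted p = 0.0021). CHLM, the next enzyme of the pathway, had 297, 775 and 373.2 against 669, 712 and 795. Array 29 was within the later range, and CHLM fell only without it (-1.11 ± 0.15, adjusted p = 0.00101). LIL3:1 and PORB, both of late chlorophyll synthesis, fell, at -1.13 and -0.77 without array 29.

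CRR and LPA factors help to assemble or express the chloroplast NADH dehydrogenase-like complex and the photosystems. Of 8 tested, 1 fell with all arrays and 6 without array 29, against 2.71% and 16.9% of all probe sets. Their median was -0.862 and -1.34. CRR41 had 47.7, 87.2 and 49.7 in arrays 28, 29 and 30, against 120.05, 127 and 139 in the later arrays, with no overlap, and differed by -1.12 ± 0.21 (SE) with all arrays (adjusted p = 0.0209) and -1.40 ± 0.18 without array 29 (adjusted p = 0.00092). CRR21, LPA66, CRR42, LPA19 and LPA2 fell, at -2.08, -1.54, -1.47, -1.27 and -0.74 without array 29. For CRR21 the signals were 38.8, 108 and 15.6 in arrays 28, 29 and 30, against 81.3 to 109 later. NdhN and NdhL, subunits of the same complex, fell, at -1.02 and -1.10 without array 29, and CaS, a thylakoid calcium-sensing protein, at -1.85. Of 13 nuclear photosynthesis genes, 4 fell without array 29, with PSB27, PGRL1B and PRK at -0.78, -0.68 and -0.62. Of 65 tested genes of the chloroplast genome, 0 were called in either fit, at a median of -0.121 with all arrays and -0.188 without array 29.

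**Figure D3:**
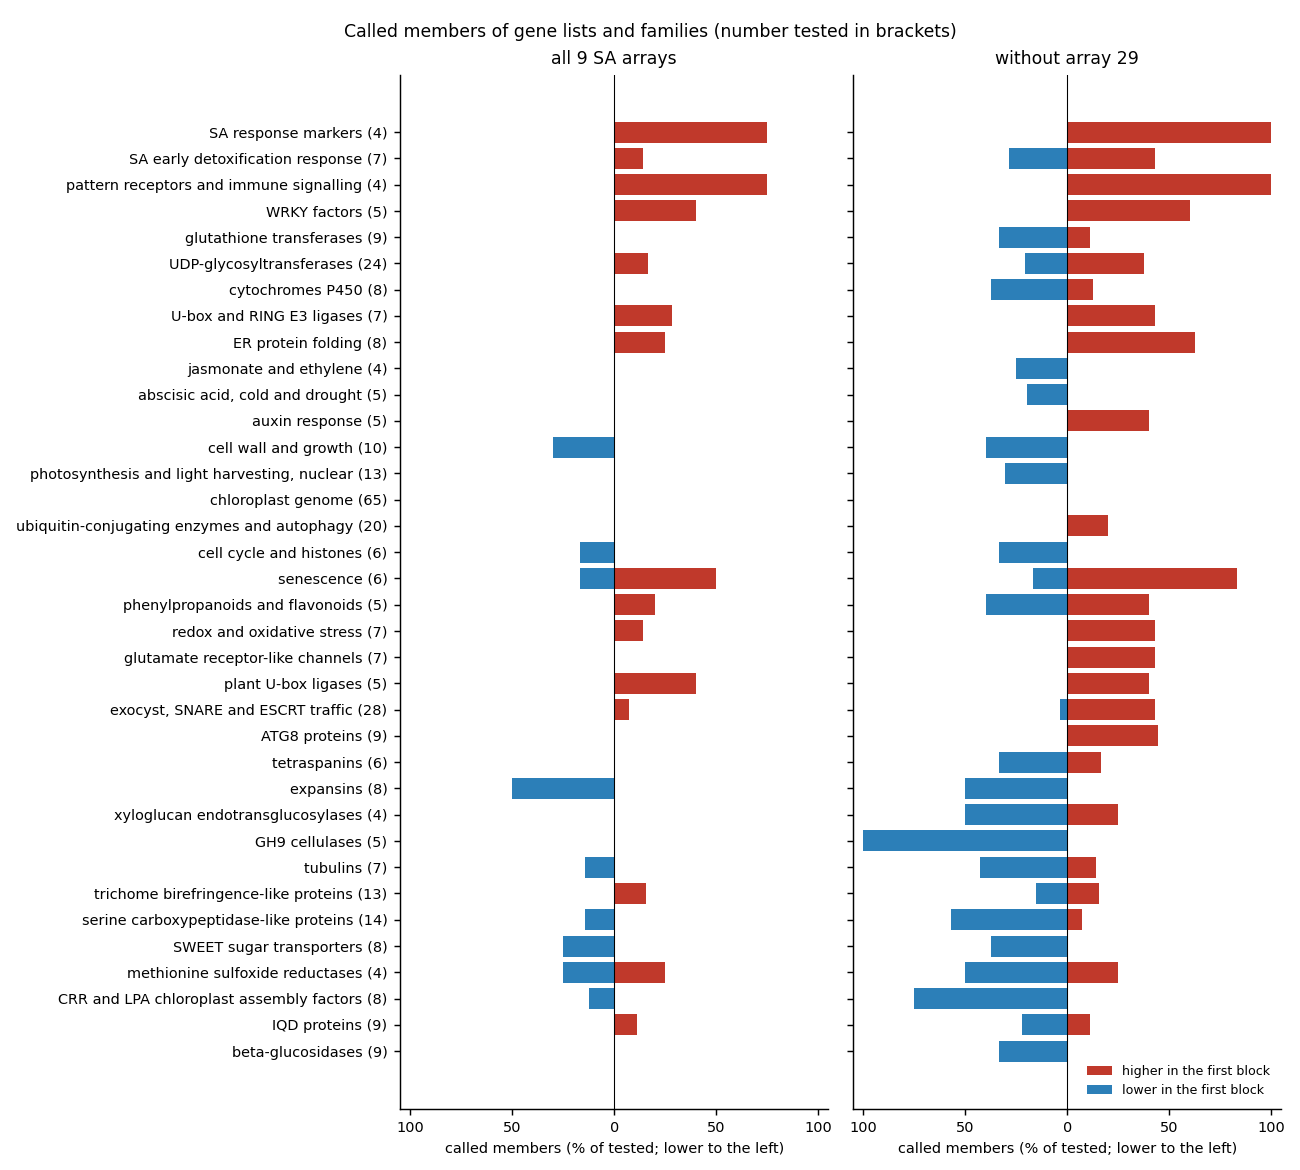
Share of tested members called higher (red, to the right) and lower (blue, to the left) in the first block than in the later SA arrays, in percent, for each gene list or family with at least 4 tested members (number in brackets), with all 9 SA arrays (left) and without array 29 (right). Over all probe sets the shares were 4.07% higher and 2.71% lower with all arrays, and 13.0% and 16.9% without array 29.

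Of 8 tested SWEET sugar transporters, a family set up after the values were seen, 2 fell with all arrays and 3 without array 29, against 2.71% and 16.9% of all probe sets. SAG29, a senescence-linked SWEET transporter, had 17.6, 20.1 and 7.41 in arrays 28, 29 and 30, against 29.8, 80.2 and 486 in the later arrays. The first block was below every later array, and the later arrays spread widely. The difference was -2.79 ± 0.71 (SE) with all arrays (adjusted p = 0.0479) and -2.89 ± 0.89 without array 29 (adjusted p = 0.0371). The first-block signals were low, and the call with all arrays depends on them. With 16 added to each signal SAG29 was at -1.925 with all arrays and was not called (limma adjusted p = 0.0718). SWEET13, a sucrose exporter, had 39.1, 29.3 and 16.6 against 37.8 to 113 and fell by 1.23 (adjusted p = 0.0239), and SWEET16, of the vacuole membrane, fell by 1.08 without array 29. Of sugar and starch genes picked out from the calls, TMT2, a sugar transporter of the vacuole membrane, had 144, 275 and 101 against 299, 368 and 438. Array 29 was just below the later range and arrays 28 and 30 far below it, and the difference was -1.19 ± 0.29 (SE) with all arrays (adjusted p = 0.0405) and -1.70 ± 0.19 without array 29 (adjusted p = 0.000552). DPE1, a plastid enzyme of starch breakdown, had 123, 208 and 76.5 against 227 to 330.3 and fell by 1.09 (adjusted p = 0.0413), and APL4, a subunit of starch synthesis, fell by 2.06 without array 29.

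Further named genes that fell with all arrays were AOP1, of glucosinolate side chains, VTC4, of ascorbate synthesis, CYN, a cyanase, BETA-VPE, a vacuolar processing protease, the transcription factor bZIP44, and DAL1, DRT100, MRL7-L, SCPL49 and scpl50, at -0.64 to -1.43. Of 14 serine carboxypeptidase-like proteins, 2 fell with all arrays, and 8 fell and 1 rose without array 29. Among all probe sets 2.71% fell with all arrays, and 16.9% fell and 13.0% rose without array 29. The rule for the largest falls with all arrays took SAG29 and SHN3 and the loci AT3G13672, AT5G39520, AT1G10640, AT1G29660, AT1G67750, AT1G22160, AT5G52390 and AT4G24780, which fell, at -1.82 to -2.39. The sizes depend on low signals for some of them. With 16 added to each signal SHN3 and AT3G13672 were at -0.845 and -1.10, while AT1G29660 was at -1.87. SAG29 was then at -1.925 and no longer called. AT1G29660 had 66.2, 375 and 142 in arrays 28, 29 and 30, against 425, 595 and 867 in the later arrays. Without array 29 it took SAG29, GIS, AT3G13672, AT1G22160 and also AT1G01250, AT1G48330, AT1G60590, AT1G68600, AT3G28270 and AT4G25780, which fell, at -3.60 to -2.70. AT3G28270 was at 123, 903 and 30.4 against 174 to 1027, with array 29 near the top of the later range, and was not called with array 29 in the fit (adjusted p = 0.288).

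Of 5 tested abscisic acid, cold and drought genes, 0 were called with all arrays, and 1 fell without array 29 (16.9% of all probe sets fell), the cold-induced chloroplast protein COR15B at -0.75. Of 4 jasmonate and ethylene genes, 0 were called with all arrays and 1 fell without array 29. Neither of the reference genes tested was called in either fit, at a median of -0.194 and -0.223. The 1 clock gene and the 1 NAC gene tested in their lists were not called in either fit, nor was the 1 gene tested in the list of ERF and AP2 factors, which does not hold SHN3.

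The difference was then set against that of the silwet arrays, as SA first minus later minus silwet first minus later. Over all 18 arrays the limma interaction called 0 of 13648 probe sets (0%), with 259 at an unadjusted p under 0.05 and a smallest adjusted p of 0.951. With only array 29 left out 0 were called, although 2763 had an unadjusted p under 0.05, and the same went for array 20 alone (0 calls, 2331 by the unadjusted p). Without both, 2434 were called (17.8%), of which 980 were higher (7.18%) and 1454 lower (10.7%) in SA. Centring each array on its median moved the median of all probe sets by over 0.1, to 0.0242 against -0.0983 as deposited, and gave 1230 higher and 900 lower. Leaving out silwet array 19 too left 322 calls, and leaving out array 30 left 796.

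Arrays 20 and 29 were left out with their GRX480 and UGT76B1 levels known, so p-values without them carry that choice. For those genes, and for others that vary with them across arrays, these p-values are no independent test. In 99.3% of the 1780 probe sets called higher in SA without array 29, array 20 exceeded the mean of silwet arrays 23 and 26. It was below that mean in 99.2% of the 2302 called lower. Among all tested probe sets it was higher in 40% and lower in 60%. With all arrays of both treatments the limma interaction called 0 of 13648 probe sets (smallest adjusted p = 0.951). Without arrays 20 and 29, GRX480 differed between the treatments by 2.49 ± 0.45 (adjusted p = 0.0037). Its signals were 613 and 701 in SA arrays 28 and 30, against 102 and 192 in silwet arrays 19 and 21. UGT76B1 differed by 4.82 ± 0.89 (adjusted p = 0.00397), WRKY53 by 2.01 ± 0.41 (adjusted p = 0.00628) and YLS5 by 1.67 ± 0.26 (adjusted p = 0.00227). AT3G28510 and AT5G03350 differed by 4.84 ± 0.80 and 3.78 ± 0.76 (adjusted p = 0.00265 and 0.0057). Among genes lower in SA, CRR41, LPA19, CHLM, CaS and TMT2 differed by -1.46, -1.53, -1.30, -1.58 and -1.33. The smallest p-values belonged to AT4G02220, AT5G17760, AT2G27660, AT1G02360 and AT4G03450, at 2.04 to 3.14, and to AT1G68600, AT2G29310, AT4G01130, AT2G34620 and AT4G33660, at -3.06 to -1.84.

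Most calls with all SA arrays had the same direction in silwet arrays 19 and 21 against later silwet arrays. These were higher in 91.4% of the 555 probe sets called higher, at a median of 0.508. In the 370 called lower they were lower in 88.4%, at a median of -0.277. Among all tested probe sets, 47.7% were higher and 52.3% lower in them. Of the 925 calls, 507 were also called in the interaction without arrays 20 and 29, and 418 were not. Several genes that were high in array 29 also had positive differences in silwet. PUB23 differed by 2.52 in SA without array 29, against 1.55 in silwet without array 20, where arrays 19, 20 and 21 had 99.0, 261 and 136. The difference between the treatments comes from 1 model of both, with a replicate term they share, and so need not equal the gap between the separate fits. For PUB23 it was 0.87 ± 0.36 and was not called (adjusted p = 0.108). AT5G51440 had 3.36 in SA and 2.45 in silwet, and AT3G16530 had 3.61 in SA and 2.64 in silwet, with treatment differences of 0.37 ± 0.66 and 0.89 ± 0.57 (adjusted p = 0.74 and 0.305). For CML42 it was 0.61 ± 0.34 (adjusted p = 0.223), while BIK1 differed by 0.78 ± 0.23 (adjusted p = 0.0321). Of 8 tested expansins, 1 was lower and 0 were higher in SA in the interaction without arrays 20 and 29. Of 10 tested cell wall and growth genes, 0 were called in it, while 7.18% of all probe sets were higher and 10.7% lower.

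**Figure D4:**
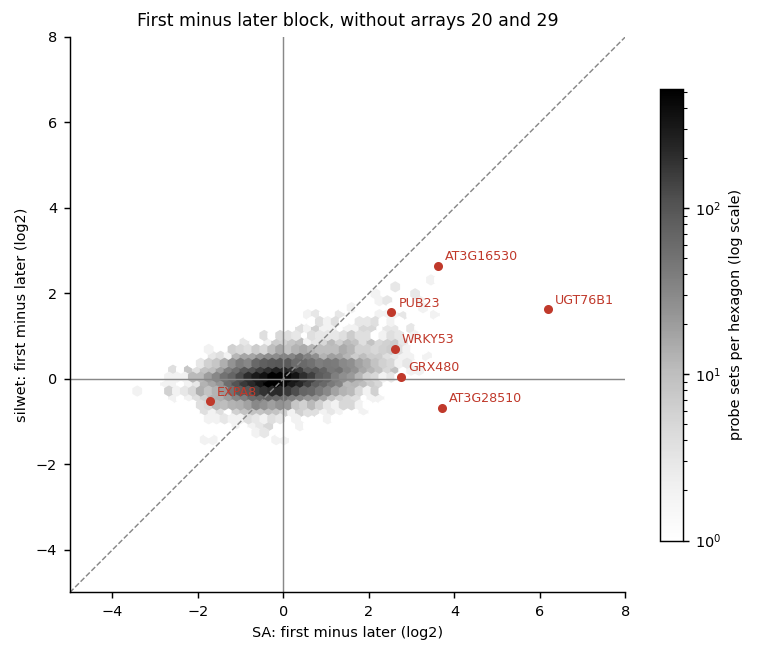
First minus later log2 difference in SA without array 29 (horizontal) and in silwet without array 20 (vertical) for 13648 probe sets, shaded by number, with the line of equality dashed. GRX480 and AT3G28510 lie near or below 0 in silwet, and AT3G16530 and PUB23 are above 0 in both treatments.

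Within the later SA arrays, the third block against the second gave 0 calls (0%), with 396 probe sets at an unadjusted p under 0.05 and a smallest adjusted p of 0.226. The 65 tested genes of the chloroplast genome had a median signal of 498.1, 776 and 846.4 in arrays 34, 35 and 36, against 375.5, 239.2 and 618.3 in arrays 31, 32 and 33. The third block was higher in 62 of the 65, with a median log2 difference of 0.967 and 43 at an unadjusted p under 0.05, and the smallest adjusted p among them was 0.226. In the first block the same median was 422, 432.8 and 578.6 in arrays 28, 29 and 30, inside the later range. For the SA response markers the third and second blocks differed by a median of -0.0159, with GRX480 at 112, 118 and 91.4 in arrays 34, 35 and 36 and 68.1, 163 and 127 in arrays 31, 32 and 33.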

How the data were processed

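Total RNA was the material extracted and biotin was the label, with 1 ATH1 array per sample. The authors deposited 1 table of signal intensity, and per the submitters' processing notes MAS5 made it (version not given in the sources used here). The 22810 probe sets had a 2% trimmed mean of 100 in each array, so no further scaling was applied, and MAS5 signals are least precise at low intensity. Of its columns, 0 lacked a sample.

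After leaving out 64 control probe sets, log2 was taken with no pseudocount. Probe sets with a mean log2 signal over the 18 arrays at or above the 40th percentile (4.31, a signal of 19.9) were tested, which left 13648, and 7342 of these had 1 gene in the platform annotation, whose symbols were brought up to date with TAIR10.1. Of all probe sets, 13513 had 1 gene, 503 several and 8730 none. PR1, PR2 and PR5, which the naming rule includes, had no tested probe set of 1 gene and are not reported here. limma 3.58.1 (R 4.3.3) (lmFit, then eBayes with a trend on intensity) had the replicate number as a fixed block, and Benjamini-Hochberg adjusted p under 0.05 was called. The interaction model held both treatments. The code was tested on simulated data.

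The rule for named genes took the 10 largest calls in each direction whose sign was shared by all replicate numbers in use, with all arrays and without array 29, the 3 smallest p-values of each list, 6 SA markers, and the 5 smallest interaction p-values in each direction. A gene with several tested probe sets entered by its brightest. The comparison, the lists and the omissions of arrays 20 and 29 were chosen with earlier results of these data known. List matching was corrected, and the families by symbol (calmodulin-like, glutamate receptor-like, traffic, ATG8, expansin, cellulase, xyloglucan enzyme, tubulin, carboxypeptidase, SWEET, methionine sulfoxide reductase, GH3, CRR and LPA among them) and the named genes outside the rule were chosen, after values had been seen. Neither is independent support. The alternatives tried were a filter at percentile 60 or none, a pseudocount of 16, median centring, quantile normalization, no trend, array weights, no or a random replicate block, a fit over all 18 arrays, each later block alone, and leaving out arrays and replicate numbers. Leaving out single silwet arrays was added after seeing the data.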

Additional observations from a re-analysis of the deposited data

Results flagged for a closer look

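In 15 of 180 sets of 6 later SA arrays, 1 array lay far from the rest by Dixon's criterion, which chance exceeds in about 1 set in 20. The gap, as a share of the range of log2 signals, was in array 34 for AT1G01250 (0.742), ATPMEPCRB (0.779), CRR42 (0.713), GH3.3 (0.664), TAAC (0.662) and TUA1 (0.628), and for the array's median signal (0.643). It was in array 31 for AT1G10585 (0.635), CCOAMT (0.64), EXPB3 (0.648) and TUB1 (0.679), in array 32 for AT4G22530 (0.733) and AT5G51440 (0.688), and in array 35 for AT3G28510 (0.641) and CML42 (0.684).

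The first-minus-later difference was not the same in SA and silwet for 2434 probe sets without arrays 20 and 29 by the limma interaction, and for 0 with all 18 arrays.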

How the results depend on the processing

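For the first block against the later SA arrays, the 925 calls became 563 with no filter, 4197 with array weights, 2725 in a fit over all 18 arrays, 0 with the second block alone as later (2123 at an unadjusted p under 0.05) and 97 with the third block alone. Leaving out 1 array or replicate number gave 0 to 4082. Fewer arrays enter the fits with 1 later block, and the cause of the other shifts was not tested. The 4082 calls without array 29 ranged from 518 to 4826 when a further array or replicate number was left out. The interaction over all 18 arrays gave 1742 calls with array weights and 0 to 2180 when an array or replicate number was left out, with 2180 for replicate number 2, which holds arrays 20 and 29. Without arrays 20 and 29 its 2434 calls ranged from 119 to 2844. The third block against the second gave 3 calls with array weights, whose fit stopped short of its convergence tolerance. The other settings kept these counts within 1.5 times.

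Replicate numbers were shared by title only: the correlation of deviations in the 9 same-numbered pairs ran from -0.285 to 0.322, with 4 over 0.1. With no replicate block there were 949 calls with all arrays, 3898 without array 29, 0 in the interaction, 1658 in the interaction without arrays 20 and 29 and 0 between the third and second blocks.

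For 174 genes, and 26 in the interaction, 8613 values were recomputed over 26 settings. Of these 6840 kept their direction and their side of the threshold, 1462 lost and 299 gained a call, and 12 changed sign. With all arrays, leaving out 1 array or replicate number gave values of -0.16 to 0.66 for EFR, -0.0486 to 1.17 for CYP71B23, -1.085 to 0.21 for UGT78D1 and -1.02 to 0.12 for UGT78D2. Without array 30 EFR was at -0.00758. None of these had been called. The SA minus silwet difference of AT5G51440 ran from -0.51 without replicate number 3 to 0.91, with -0.168 without silwet array 21. Low signals limit the precision: the filter keeps probe sets from a signal of 19.9.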
